A study of Mus musculus with 30 samples.

Results

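Heat shock proteins and their co-chaperones were followed in sorted mouse astrocytes through 10 named genes of the 18193 genes on the array. They are the small heat shock proteins Hspb1, Hspb6, Hspb8 and Cryab, the HSP70 genes Hspa1a, Hspa1b and Hspa8, the HSP110 gene Hsph1, the J-domain protein Dnajb1 and the BAG protein Bag3. The genes were chosen by name with earlier results of these data known, and each was read from its brightest probe set, by the mean of all 30 arrays. All 10 passed the filter on low values, a log2 intensity of at least 5 on at least 3 arrays, as did 15726 genes in all.

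Every group came from young adult male mice carrying Tg(Aldh1l1-eGFP) OFC789Gsat on a Swiss Webster background, in which the promoter of Aldh1l1, an astrocyte folate enzyme, drives green fluorescent protein. Brains were dissociated with papain and the fluorescent cells were collected by cell sorting, so any other cell that holds the protein is collected too. Stroke was modelled by closing the middle cerebral artery (MCAO) for 1 hour followed by reperfusion, and the control mice had the operation without occlusion (sham). There were 5 MCAO and 4 sham arrays at 1 day, and 3 of each at 3 and at 7 days. Systemic inflammation was induced with 5 mg/kg bacterial lipopolysaccharide (LPS) injected into the peritoneum, with endotoxin-free saline as its control. Cells were taken 1 day later, on 5 LPS and 4 saline arrays. RNA was amplified in 2 cycles before hybridisation to an Affymetrix expression array. The labels call the arrays of a group biological replicates without saying that each holds a separate mouse, so the p-values speak of the spread among these arrays, which may be partly technical.

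Heat shock proteins bind unfolded proteins. Small heat shock proteins hold them in soluble complexes without using ATP, and proteins of the HSP70 family fold them in cycles of ATP hydrolysis. J-domain proteins such as DNAJB1 start that cycle, and nucleotide exchange factors such as HSPH1 and BAG3 end it. BAG3 also ties HSPB8 and HSP70 to autophagy. Many of these genes are transcribed by heat shock factor 1, which binds inverted repeats of the bases GAA in their promoters. In the brain HSPB1 and CRYAB are known from reactive astrocytes, and the small heat shock proteins are also abundant in the smooth muscle of vessels.

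The promoters are shown because the genes that rose differed in whether an exact match to the heat shock element was found there. A RefSeq table (GRCm38.p6) held promoters of 8 members in 11 entries. The 250 bases before each start site were searched on both strands for 2 adjoining units of the element, GAANNTTC or TTCNNGAA, and for 3 alternating units with the same spacing, which contain both shorter forms. Of all 32851 promoters of the table, 12.8% held 2 units and 0.466% held 3. Of the 11 entries 6, from 5 members, held 2 units, and 0 of the 8 members held 3. Capitals mark the match, and the last base is the one before the start site.
Hspb1, chr5:135887669-135887918, plus strand: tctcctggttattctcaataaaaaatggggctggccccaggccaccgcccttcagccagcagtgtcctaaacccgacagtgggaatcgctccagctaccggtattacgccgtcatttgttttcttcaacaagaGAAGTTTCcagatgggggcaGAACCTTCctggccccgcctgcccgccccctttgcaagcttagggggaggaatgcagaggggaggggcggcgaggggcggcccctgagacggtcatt
Hspa1a, chr17:34972157-34972406, minus strand: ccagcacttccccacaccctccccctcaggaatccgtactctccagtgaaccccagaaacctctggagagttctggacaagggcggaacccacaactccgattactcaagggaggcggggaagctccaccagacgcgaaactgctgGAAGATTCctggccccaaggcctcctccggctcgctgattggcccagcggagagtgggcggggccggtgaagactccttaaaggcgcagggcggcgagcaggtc
Hspa1b, chr17:34959239-34959488, minus strand: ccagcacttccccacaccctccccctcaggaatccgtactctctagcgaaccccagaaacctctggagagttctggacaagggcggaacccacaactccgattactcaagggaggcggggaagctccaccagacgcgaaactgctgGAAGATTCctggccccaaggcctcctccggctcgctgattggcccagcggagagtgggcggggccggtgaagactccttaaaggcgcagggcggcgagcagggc
Hspb8, chr5:116422865-116423114, minus strand: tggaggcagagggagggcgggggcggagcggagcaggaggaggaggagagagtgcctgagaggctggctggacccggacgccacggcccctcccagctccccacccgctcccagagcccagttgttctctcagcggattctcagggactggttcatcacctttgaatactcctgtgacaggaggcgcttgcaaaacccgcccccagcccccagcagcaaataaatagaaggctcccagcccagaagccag
Hspb1 had matches at -117 to -110 and at -97 to -90, counted from the start site. Hspa1a and Hspa1b shared a match at -104 to -97, and 247 of their 250 upstream bases were identical (98.8%). Hspb8, shown for contrast, held none of these letters. Of the entries not shown, 1 of the 2 for Hspb6 held GAAGTTTC at -120 to -113, and both for Hsph1 held TTCTCGAA, at -54 to -47 and at -33 to -26 from their start sites. The 2 entries for Hsph1 overlap, so theirs is 1 match counted in both. The entries for Bag3 and Dnajb1 held none. The Hspb6 entry with the match (from chr7:30553051) and the second Dnajb1 entry (from chr8:83608298) precede later start sites and lie within the gene spans given below. A match is a description of the letters and not evidence of a bound site. Only exact letters in 250 bases were searched, so an entry without a match is not shown to lack an element.

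**Figure D1:**
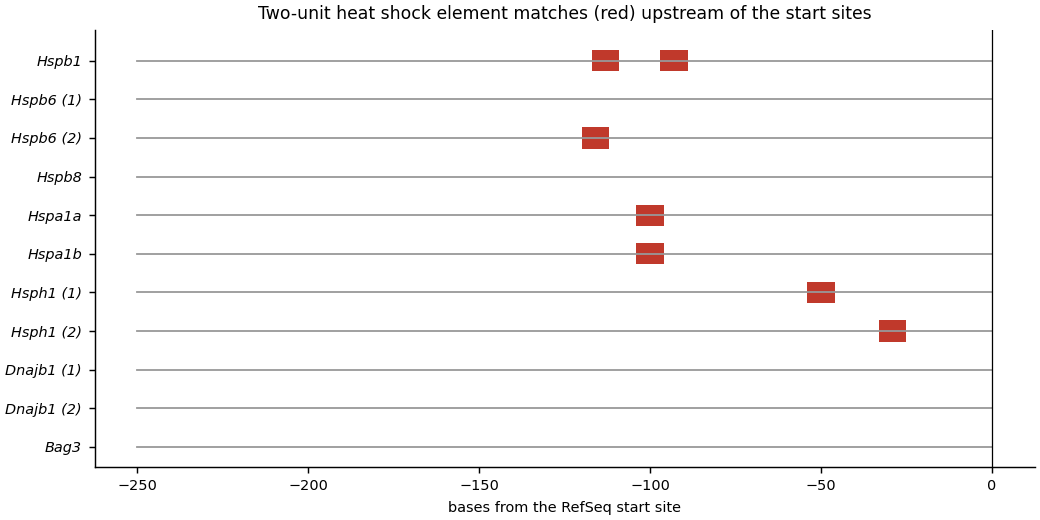
Positions of 2-unit matches to the heat shock element (red boxes) in the 250 bases upstream of each RefSeq start site, in bases from that site, with 2 entries for Hspb6, Hsph1 and Dnajb1. Hspb1 carries 2 boxes, Hspa1a and Hspa1b carry 1 at the same distance, and Hspb8, Dnajb1 and Bag3 carry none.

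The genes lie on several chromosomes of the same build. Hspb1 (chr5:135887919-135889563), Hspb8 (chr5:116408491-116422864) and Hsph1 (chr5:149616843-149636498) are on chromosome 5. Hspb6 (chr7:30552535-30555443) and Bag3 (chr7:128523583-128546981) are on chromosome 7. Cryab (chr9:50745951-50756636) and Hspa8 (chr9:40801276-40805202) are on chromosome 9, and Dnajb1 (chr8:83608175-83612653) is on chromosome 8. Hspa1b (chr17:34956429-34959238) and Hspa1a (chr17:34969359-34972156) are separated by 10120 bases on chromosome 17. They are near-identical copies, so their probe sets may not tell them apart, and the values of either are uncertain as a measure of that gene alone.

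The sorted cells carried astrocyte markers on every array, with a mean log2 intensity over 10 markers between 12.47 and 13.65. Transcripts of some other cells were also present, but a list mean little above the filter at log2 5 does not show presence. The lists averaged 7.07 to 10.59 for oligodendrocytes, 6.66 to 8.99 for their precursors and 6.70 to 9.82 for neurons. They averaged 7.04 to 8.71 for pericytes and smooth muscle, 5.51 to 9.58 for endothelium and 5.57 to 6.86 for microglia. Sham array 3 of day 1 had the highest neuronal mean, 9.82, and the highest endothelial mean of its group, 9.23. After it had been seen that arrays differed in their highest intensity, they were put in 2 sets: 16 bright arrays that reached 31338 to 35553, and 14 dim ones that reached 20222 to 26595. All surgery arrays of day 1 were bright and all of day 7 were dim, so the set and the time cannot be told apart between those days. At 3 days, array 3 of either group was bright and the other two were dim, and LPS and saline arrays lay in both sets. LPS array 5 stood apart from its group: its log2 values correlated at 0.884 to 0.915 with those of the other LPS arrays, which correlated at 0.949 to 0.981 among themselves, and its median intensity was 94 where no other array exceeded 73. In sorted bulk cells, fewer cells of a type and less RNA per cell cannot be told apart.

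A day after MCAO the largest rises among the members were in Hspb1, by 18.7-fold, and Hspb6, by 5.37-fold. The small heat shock genes Hspb8 and Cryab were called higher too, Cryab only just. Of the HSP70 and HSP110 genes, Hspa1a and Hsph1 rose and Hspa8, the constitutive member, was not called. Bag3 rose and Dnajb1 was not called. In all, 7 of the 10 members were called higher by limma, that is, at a p under 0.05 after Benjamini-Hochberg adjustment over the genes tested. Of these genes 12.7% were called and 6.49% were called higher. The same 7 members had every MCAO array above every sham array, which 12.1% of all genes showed. The median log2 difference was 1.17 over the members and -0.05 over all genes tested.

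**Figure D2:**
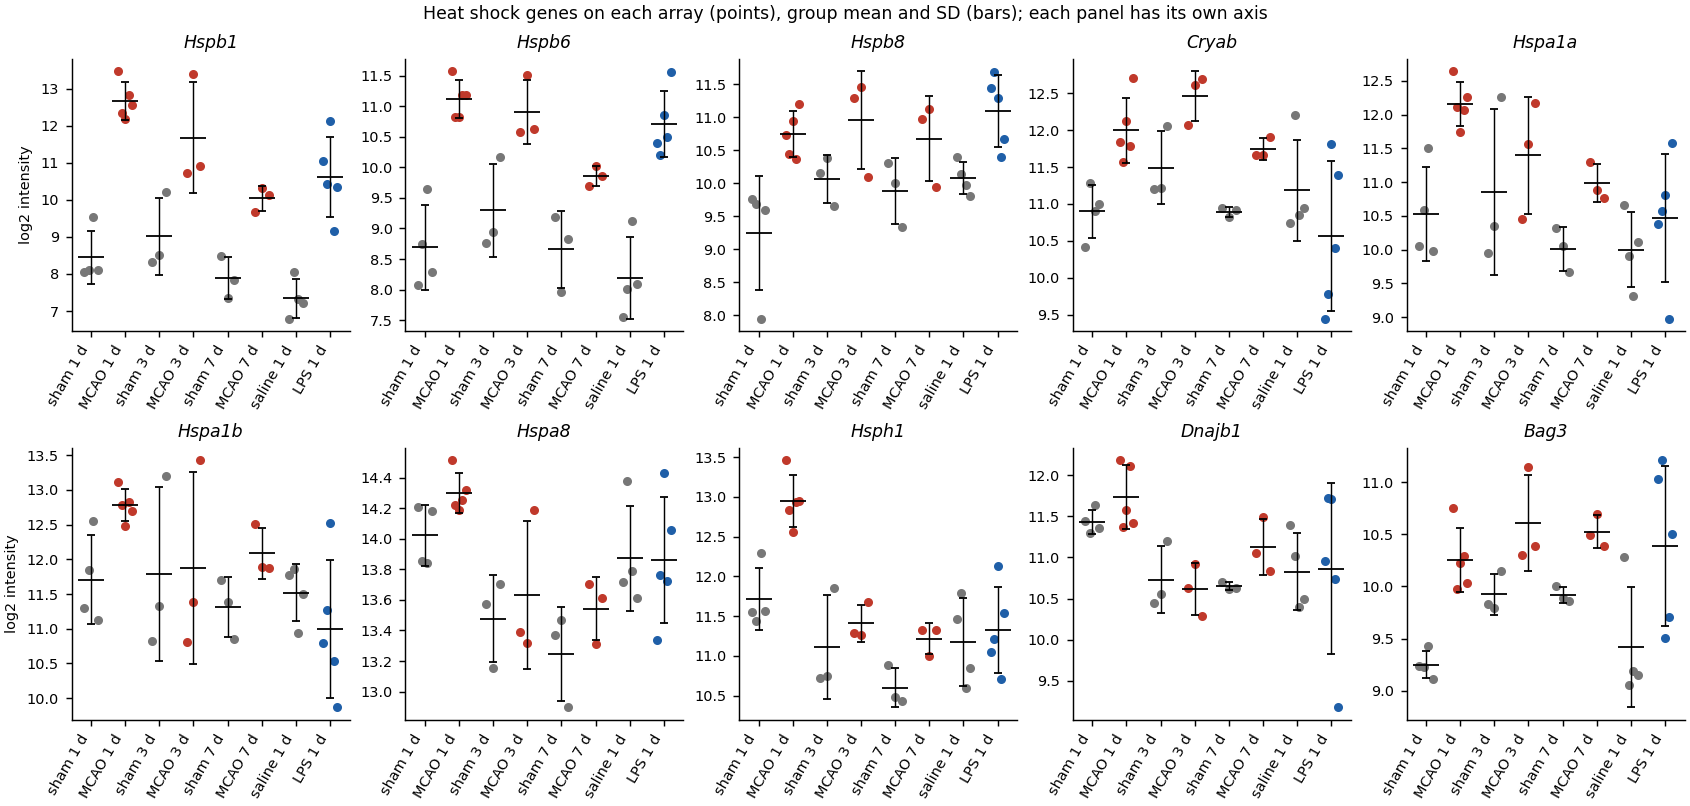
Log2 intensity of the 10 genes on each of the 30 arrays (points), with the group mean and SD (bars), from sham and MCAO at 1, 3 and 7 days to saline and LPS at 1 day, each panel on its own axis. The 5 MCAO arrays of day 1 lie between 12.17 and 13.46 for Hspb1, above the 4 sham arrays at 8.06 to 9.53.

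Hspb1 encodes HSP27, an actin-protecting small heat shock protein. Its log2 intensity was 13.46, 12.33, 12.17, 12.83 and 12.56 on the 5 MCAO arrays and 8.06, 8.10, 9.53 and 8.11 on the 4 sham arrays. The sham arrays lay close together apart from array 3, and even that array was well below the lowest MCAO array. The group means were 12.67 ± 0.51 (SD, n = 5) and 8.45 ± 0.72 (SD, n = 4), a log2 difference of 4.22 ± 0.52 (SE) with a limma adjusted p of 3.9e-06. No other member differed by as much.

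Hspb6 encodes HSP20, a small heat shock protein of muscle and other tissues. It read 11.57, 10.83, 10.82, 11.18 and 11.18 after MCAO against 8.08, 8.75, 9.65 and 8.29 after sham surgery. Again array 3 was the highest of the sham group and the groups did not overlap. The log2 difference was 2.43 ± 0.35 (SE; limma adjusted p = 2.76e-05), from a sham mean of 8.69 ± 0.69 (SD, n = 4) to 11.12 ± 0.31 (SD, n = 5).

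Hspb8, the partner of BAG3 in autophagy, read 10.73, 10.45, 10.95, 10.37 and 11.21 after MCAO and 9.75, 9.69, 7.95 and 9.60 after sham surgery. Here sham array 3 was the lowest of its group, not the highest. Hspb8 rose by 1.49 ± 0.35 on the log2 scale (limma adjusted p = 0.00431), and by 1.06 without that array. The 2 other probe sets of Hspb8 differed by 0.74 (adjusted p = 0.111) and 0.47 (0.187) when limma was run over all probe sets, so the call rests on 1 of 3.

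Cryab encodes alpha-B crystallin, a chaperone of intermediate filaments. Its MCAO arrays read 11.83, 11.57, 12.12, 11.78 and 12.70 and its sham arrays 10.42, 11.28, 10.91 and 11.00. The groups did not overlap, but the gap between the highest sham and the lowest MCAO array was under that of the other three small heat shock genes named above. Cryab rose by 1.10 ± 0.37 (limma adjusted p = 0.0469), the call closest to the threshold, and 8 of the 9 fits without 1 array lost it, as did the fit without a filter (adjusted p = 0.0563) and the mean of its probe sets (0.54, adjusted p = 0.127). Another probe set of Cryab gave 0.54 (adjusted p = 0.532), and the third was too dim to be tested, at a mean of 4.23.

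Hspa1a and Hspa1b are the stress-inducible HSP70 genes, barely transcribed in many unstressed cells. Hspa1a read 12.64, 12.12, 11.74, 12.06 and 12.26 after MCAO and 10.05, 10.59, 11.50 and 9.98 after sham surgery, with sham array 3 just under the lowest MCAO array. It rose by 1.63 ± 0.45 (limma adjusted p = 0.0142). Hspa1b read 13.11, 12.78, 12.49, 12.83 and 12.70 against 11.30, 11.84, 12.55 and 11.13, so sham array 3 overlapped the MCAO arrays. Its log2 difference of 1.08 ± 0.49 was not called (limma adjusted p = 0.169), and its other two probe sets gave 1.24 and 1.08, also uncalled. Since the copies are so alike, the 4 probe sets may not be separate measures, and 1 of them was called. They did not always read alike: on LPS array 5 Hspa1a was the highest of its group at 11.59 and Hspa1b the lowest at 9.87.

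Hsph1 encodes HSP110, which exchanges the nucleotide of HSP70. It read 13.47, 12.84, 12.56, 12.94 and 12.96 after MCAO and 11.56, 11.44, 12.29 and 11.57 after sham surgery. Sham array 3 was the highest control once more, without reaching the MCAO arrays. Hsph1 rose by 1.24 ± 0.28 (limma adjusted p = 0.00297), and its second probe set by 1.55 (adjusted p = 0.0043 over all probe sets). Hspa8, the constitutive HSC70 gene, lay at 14.18 to 14.51 on the MCAO arrays and 13.84 to 14.21 on the sham arrays. Its difference was 0.28 ± 0.21 (limma adjusted p = 0.514), with a 95% interval from -0.15 to 0.71.

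Bag3, whose protein delivers HSP70 clients to autophagy, read 10.75, 9.98, 10.23, 10.29 and 10.03 after MCAO and 9.24, 9.22, 9.42 and 9.11 after sham surgery. Its sham arrays were the tightest of the 10 genes, with an SD of 0.13. Bag3 rose by 1.01 ± 0.29 (limma adjusted p = 0.018). Dnajb1, the HSP40 gene that works with inducible HSP70, overlapped between the groups, at 11.37 to 12.19 after MCAO and 11.29 to 11.64 after sham surgery. It differed by 0.30 ± 0.34 (limma adjusted p = 0.739; 95% interval -0.40 to 1.00).

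**Figure D3:**
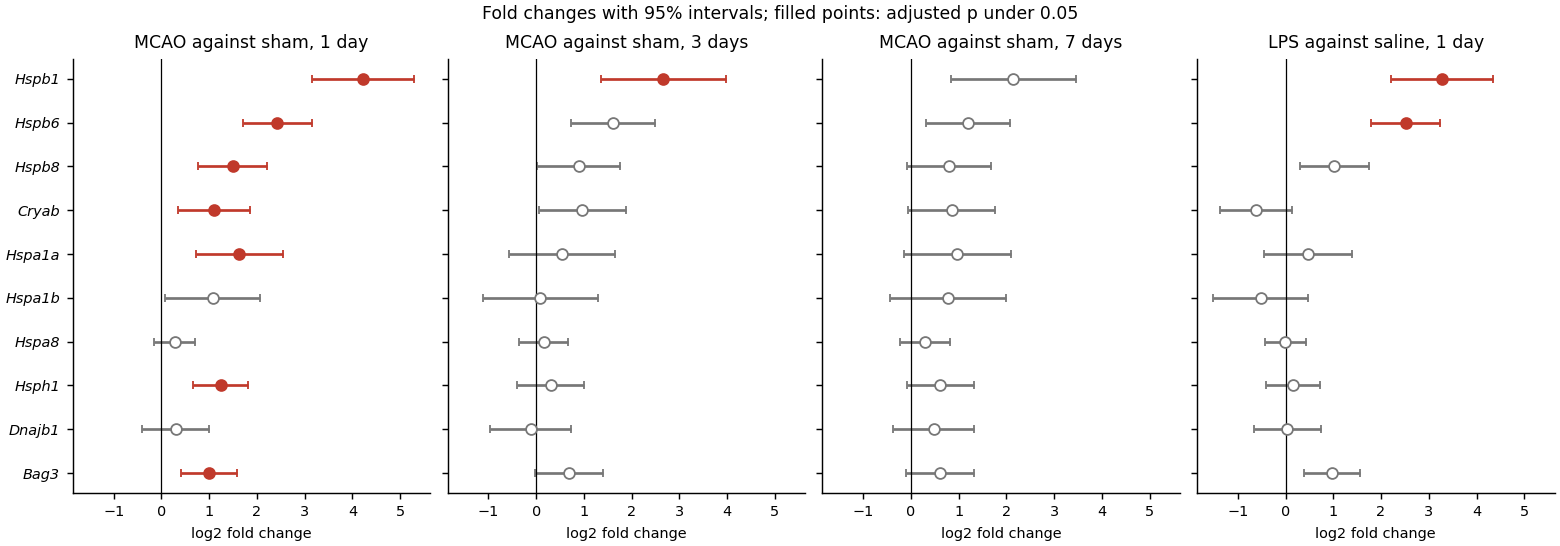
Log2 difference of each gene in the 4 comparisons (points) with 95% intervals (bars). Filled points have a limma adjusted p under 0.05, and they number 7 at 1 day, 1 at 3 days and 0 at 7 days after MCAO, and 2 after LPS.

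The numbers in the sample descriptions are shared between MCAO and sham arrays of day 1. With the description numbers as a replicate block over the surgery arrays of all days, 5 of the 7 calls remained. Cryab (limma adjusted p = 0.127) and Bag3 (0.153) were lost. With the block limited to the surgery arrays of day 1, 4 calls remained: Hspb1 at 4.02, Hspb6 at 2.31, Hspb8 at 1.50 and Hsph1 at 1.11. The others missed the threshold in limma, Hspa1a at 1.51 (adjusted p = 0.0614), Cryab at 1.14 (0.0835) and Bag3 at 0.88 (0.0942). The first MCAO array has no partner and adds nothing to that fit. Over all genes the calls went from 1991 to 1078 with the block over the surgery arrays of all days and to 1218 with the limited one. In the fit without the block, leaving out sham array 4 also left 4 calls, without Cryab, Hspa1a and Bag3. Without sham array 3, which stood apart, 6 members were called, and the differences were 4.58 for Hspb1, 2.74 for Hspb6, 1.96 for Hspa1a and 1.43 for Hsph1. Leaving out sham array 1 lost Cryab and Hspa1a, and leaving out MCAO array 1 lost Cryab and Bag3.

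Of 73 further chaperone and protein quality control genes that were tested, 10 rose and 2 fell at 1 day, with a median log2 difference of 0.02. The share called, 16.4%, was near the 12.7% of all genes. Chaperonins, the barrel-shaped complexes that fold actin and tubulin among other proteins, made up most of the rises. Of 10 chaperonin genes 6 rose, and the 10 spanned 0.59 to 0.99 with every MCAO array above every sham array. Cct8 rose by 0.99 ± 0.23, Cct5 by 0.90 ± 0.17 and Tcp1 by 0.82 ± 0.18. The mitochondrial HSP70 gene Hspa9 rose by 0.73 ± 0.16 and the exchange factor gene Hspbp1 by 0.63 ± 0.21.

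Relatives of HSP70 went both ways at 1 day. The HSP110-type gene Hspa4 rose by 1.06 ± 0.21 and Hspa14, a partner of ribosome-bound chaperones, by 0.90 ± 0.22. Hspa2, another cytosolic HSP70 gene, fell by 1.30 ± 0.20 on the log2 scale (limma adjusted p = 6.63e-05). The exchange factor gene of the endoplasmic reticulum, Sil1, fell by 0.89 ± 0.18. The 6 other small heat shock genes had array means of 5.82 to 5.90 after MCAO and 5.75 to 5.94 after sham surgery. These lie little above the filter at log2 5, where a change may not be seen. Among these genes 0 were called, with differences between -0.09 and 0.09. Likewise 0 of 9 HSP90 and co-chaperone genes and 0 of 9 other J-domain genes were called. Hsp90aa1, the inducible HSP90 gene, differed by 0.77 ± 0.37 (limma adjusted p = 0.197). Neither Hsf2, Hsf4 nor Hsbp1, which encode heat shock factors and a binding protein, was called. Hsf1, Hsp90ab1 and Ptges3 were not analysed here.

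Markers of other cells and of dissociation are given beside these values. Of 10 immediate early genes, which tissue dissociation is known to induce, 0 were called at 1 day. Their median difference was 0.30, and their array means were 11.34 to 12.17 after MCAO and 10.80 to 11.69 after sham surgery. Pericyte and smooth muscle markers averaged 7.54 to 8.33 on the MCAO and 7.80 to 8.18 on the sham arrays. Of 8 such markers 1 was called, Tagln, an actin-binding protein gene, which rose by 1.53 ± 0.39. Acta2 differed by -0.39, Rgs5 by -0.14 and Pdgfrb by -0.93, none of them called. Endothelial means were 7.10 to 9.58 and 7.50 to 9.23, with 1 of 9 markers called higher (Vwf), as was 1 of 10 microglial markers (Cd68). Of the oligodendrocyte markers 2 of 10 fell (Aspa and Cnp), of their precursors' markers 1 of 7 fell (Cacng4), and 0 of 8 neuronal markers were called. Among the astrocyte markers Gfap rose by 1.69 ± 0.40, and Gjb6 and Slc1a3 fell by 0.63 and 0.52. The part of these cells or of dissociation in the heat shock values was not tested.

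At 3 days Hspb1 was the only member called after MCAO, and the 4 small heat shock genes had the largest differences. Hspb1 rose by 6.33-fold. The call is 1 of 10 members, against 0.674% of all genes called and 0.61% called higher at this time. Every MCAO array was above every sham array for Hspb1, Hspb6, Cryab and Bag3, 4 members, as for 5.74% of all genes. The median log2 difference was 0.61 over the members and 0.01 over all genes, and 9 of 10 differences were positive.

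Hspb1 read 10.71, 13.40 and 10.91 on the MCAO arrays of day 3 and 8.33, 8.50 and 10.21 on the sham arrays. One array of each group stood above its fellows, MCAO array 2 and sham array 3, and the groups did not overlap. The log2 difference was 2.66 ± 0.64 (limma adjusted p = 0.0443), between means of 11.67 ± 1.50 and 9.01 ± 1.04 (SD, n = 3 each). Without MCAO array 2 it was 1.80 (adjusted p = 0.475), and the call was also lost without MCAO array 1 (adjusted p = 0.079), sham array 1 (0.35) or sham array 2 (0.342). Fitting the 6 arrays of day 3 by themselves gave an adjusted p of 0.437, and dropping the filter on low values gave 0.0557.

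Hspb6 read 10.58, 11.51 and 10.63 after MCAO and 8.77, 8.95 and 10.17 after sham surgery, with the same 2 arrays highest. Its difference was 1.61 ± 0.43 and was not called (limma adjusted p = 0.081). Cryab differed by 0.97 ± 0.45, Hspb8 by 0.89 ± 0.43 and Bag3 by 0.69 ± 0.35, with limma adjusted p-values of 0.477, 0.512 and 0.562. The remaining members lay between -0.11 for Dnajb1 and 0.54 for Hspa1a, and these small differences turned on single arrays. Leaving out 1 array took Hspa1a from 0.09 (without sham array 1) to 1.24 (without sham array 3), Hspa1b from -0.69 (without MCAO array 3) to 0.80 (without sham array 3) and Dnajb1 from -0.27 (without MCAO array 2) to 0.12 (without sham array 3).

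For the inducible HSP70 genes the bright array was the highest of either group at 3 days. Hspa1a read 10.46, 11.56 and 12.17 after MCAO and 9.96, 10.35 and 12.26 after sham surgery. Hspa1b read 10.80, 11.39 and 13.43 against 10.82, 11.33 and 13.20, and in both groups array 3 stood above the other two arrays. Between the dim arrays alone Hspb1 differed by 3.64 (limma adjusted p = 0.00182) and Hspb6 by 2.18 (0.00607). Both were called, as were 5.51% of all genes. Between the single bright arrays the differences were 0.70 for Hspb1 and 0.46 for Hspb6, uncalled, with the spread of the other arrays assumed for each. With the set as a covariate Hspb1 stayed called at 2.66 (adjusted p = 0.0306).

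**Figure D4:**
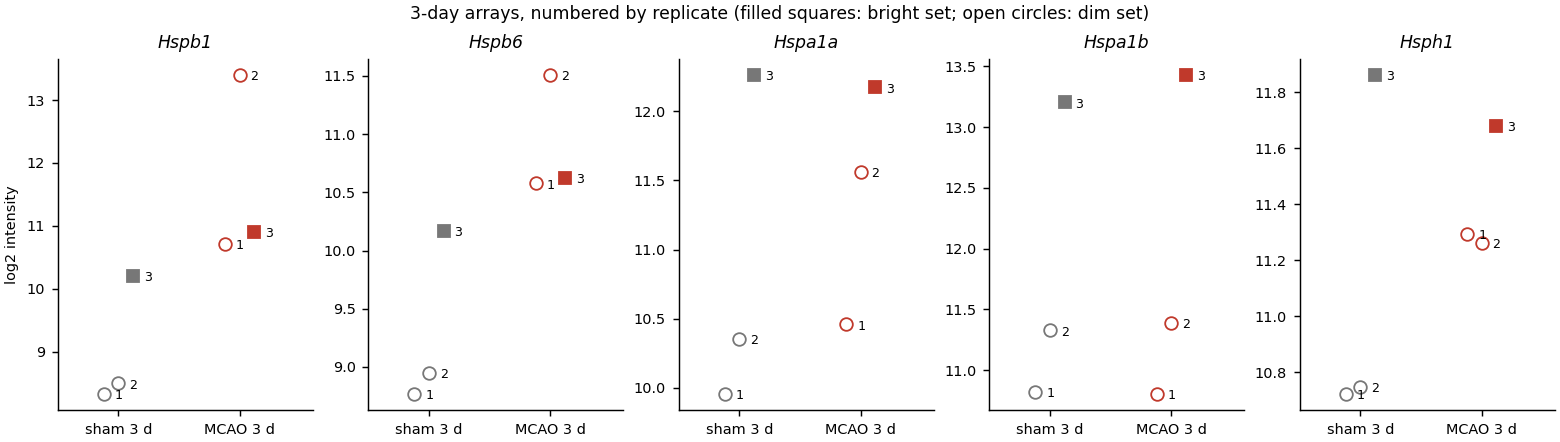
Log2 intensity of 5 genes on the 6 arrays of day 3, numbered by replicate, with filled squares for bright and open circles for dim arrays. Array 3 of either group is the highest for Hspa1a (12.26 sham, 12.17 MCAO) and Hspa1b, while Hspb1 of MCAO arrays stays above 10.21, the highest sham value.

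Of the 73 other chaperone genes 0 were called at 3 days, and their median difference was 0.08. All 10 chaperonin genes had positive differences, of 0.28 to 0.48. Immediate early genes averaged 11.38 to 12.66 on the MCAO and 11.34 to 12.05 on the sham arrays, with 0 of 10 called. Pericyte and smooth muscle markers averaged 7.78 to 8.71 and 7.29 to 7.87, and of these Tagln rose by 2.46 ± 0.48. Endothelial means were 6.43 to 6.68 against 6.07 to 6.29, without overlap, and 8 of 9 markers had positive differences with 0 called. Oligodendrocyte markers had a median difference of 0.93, with 9 of 10 positive and 0 called. Their precursors' markers averaged 7.74 to 8.37, with a median array at 8.27, against 6.76 to 8.99, with a median array at 6.90, and 0 of 7 were called. Microglial means were 6.11 to 6.69 against 5.96 to 6.26, with 9 of 10 markers positive and 0 called. The part of these cells in the values of Hspb1 was not tested.

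At 7 days after MCAO every member was above its control in the mean but 0 were called, where 0.0254% of all genes were. For 8 members the MCAO arrays all lay above the sham arrays, as for 9.65% of all genes, and Hspb8 and Hspa8 overlapped. The median log2 difference was 0.79 over the members and -0.01 over all genes. Hspb1 and Hspb6 had an unadjusted limma p under 0.05, but the share of all genes under that value was not counted.

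Hspb1 read 9.68, 10.32 and 10.12 on the MCAO arrays of day 7 and 8.49, 7.35 and 7.85 on the sham arrays. All MCAO arrays were above the highest sham array. The difference was 2.14 ± 0.64 (limma adjusted p = 0.5), which is 4.42-fold with a 95% interval of the log2 value from 0.84 to 3.45. Fitting the 6 arrays of day 7 alone called Hspb1 (adjusted p = 0.0164) and Cryab, with 1.3% of all genes called. Array weights, by which limma gives deviant arrays less influence, called 7 members and 3.34% of all genes. The fit of all 30 arrays without weights called 0.0254% of all genes. Hspb6 read 9.70, 10.03 and 9.87 against 9.19, 7.97 and 8.83, a difference of 1.20 ± 0.43 that was not called.

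Cryab showed the smallest scatter at 7 days, with 11.66, 11.66 and 11.91 after MCAO and 10.94, 10.82 and 10.91 after sham surgery. Its difference was 0.85 ± 0.45 in limma, whose variance is pooled over the 8 groups and exceeds the scatter of these 6 arrays. Hspa1a differed by 0.97, Hspb8 by 0.80, Hspa1b by 0.77, Hsph1 by 0.62, Bag3 by 0.60, Dnajb1 by 0.48 and Hspa8 by 0.30. None of these passed. Immediate early genes moved with them: their array means were 11.68 to 12.16 after MCAO and 10.94 to 11.49 after sham surgery, without overlap, and all 10 had positive differences with a median of 0.76, though 0 were called. Pericyte and smooth muscle markers averaged 7.61 to 8.0 against 7.09 to 7.44, also without overlap, and 0 of 8 were called. Precursors of oligodendrocytes had 2 of 7 markers called higher, C1ql1 and Matn4, and means of 8.33 to 8.67 against 6.68 to 6.91. The part of these lists in the heat shock values was not tested. Among the other chaperone genes 0 of 73 were called.

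After LPS Hspb1 and Hspb6 rose and the other 8 members were not called. Hspb1 rose by 9.69-fold and Hspb6 by 5.71-fold. That is 2 of 10 members, when 3.11% of all genes were called and 2.37% were called higher. Hspb1, Hspb6 and Hspb8 had every LPS array above every saline array, as 1.88% of all genes did. The median log2 difference was 0.31 over the members and 0.07 over all genes, and 7 of the 10 differences were positive. Without LPS array 5, which stood apart over all probe sets, the same 2 members were called, Hspb1 at 3.34 and Hspb6 at 2.30.

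Hspb1 read 11.04, 10.42, 12.13, 9.16 and 10.36 on the LPS arrays and 6.79, 8.05, 7.33 and 7.21 on the saline arrays. The LPS arrays were widely spread, but the lowest of them, array 4, was above the highest saline array. The log2 difference was 3.28 ± 0.52 (limma adjusted p = 0.000302). It was 3.77 among the bright arrays (adjusted p = 0.00099) and 2.49 among the dim ones, where it was not called (0.0564).

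Hspb6 read 10.40, 10.20, 10.86, 10.50 and 11.56 after LPS and 7.55, 8.01, 9.13 and 8.09 after saline. The groups were far apart, and the rise was 2.51 ± 0.35 (limma adjusted p = 6.46e-05). It held in the bright arrays at 2.71 and in the dim arrays at 2.43. Hspb8 read 11.44, 11.68, 11.29, 10.39 and 10.67 against 10.39, 10.14, 9.98 and 9.81, with array 4 of LPS only just above saline array 1. Its difference of 1.02 ± 0.35 was not called (limma adjusted p = 0.121).

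Cryab went the other way in the mean, without a call. It read 9.45, 9.79, 11.82, 10.40 and 11.39 after LPS and 10.74, 12.20, 10.85 and 10.95 after saline. The LPS arrays straddled the saline arrays, and the difference was -0.61 ± 0.37 (limma adjusted p = 0.432). It was -1.12 among the bright and -0.0017 among the dim arrays. Single arrays moved it, to -0.28 without saline array 2, which stood apart at 12.20, to -0.33 without LPS array 1 and to -0.93 without LPS array 3, and none of these was called.

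Bag3 read 11.03, 11.21, 9.50, 9.70 and 10.50 after LPS and 10.28, 9.05, 9.19 and 9.15 after saline. Saline array 1 overlapped the LPS group and the other three saline arrays did not. The difference was 0.97 ± 0.29 and just missed the call (limma adjusted p = 0.0608), and without saline array 1 it was 1.26 and called (adjusted p = 0.0101). It was also called without LPS array 3 (0.00982) or array 4 (0.0185). Hspa1a differed by 0.47 ± 0.45, Hspa1b by -0.52 ± 0.49 and Hsph1 by 0.15 ± 0.28. Hspa8 differed by -0.01 ± 0.21 and Dnajb1 by 0.03 ± 0.34, with 95% intervals from -0.44 to 0.42 and from -0.67 to 0.74. Dnajb1 was lowest on LPS array 5, at 9.18 against 10.74 or more on the other LPS arrays. Without that array it differed by 0.46 (limma adjusted p = 0.354), Hspa1a by 0.19 and Hspa1b by -0.24.

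Of the 73 other chaperone genes 3 rose and 1 fell after LPS, with a median of 0.16. Hspa14 rose by 0.85 ± 0.22, the BAG family gene Bag5 by 0.92 ± 0.23 and the J-domain gene Dnajb4 by 0.66 ± 0.16. Ubqln2, whose protein brings clients to the proteasome, fell by 1.00 ± 0.26. Of the chaperonins 0 of 10 were called. Immediate early genes averaged 9.34 to 11.87 on the LPS and 10.09 to 11.27 on the saline arrays, with 0 of 10 called. Pericyte and smooth muscle markers averaged 7.16 to 7.95 and 7.04 to 7.69, and Rgs5, a pericyte gene, rose by 1.98 ± 0.41 while Tagln differed by 0.33. Gfap rose by 1.87 ± 0.40. Positive differences were also found for 9 of 10 microglial, 8 of 9 endothelial, 8 of 10 oligodendrocyte and 6 of 7 precursor markers. Of the astrocyte markers 7 of 10 were positive as well, and the median over all genes tested was itself 0.07. Neuronal markers had 5 of 8 positive, and pericyte and smooth muscle markers 6 of 8. The part of other cells in the rise of Hspb1 and Hspb6 was not tested.

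Whether stroke and systemic inflammation differed in their effect on these genes was tested as the MCAO effect minus the LPS effect at 1 day. The difference was called for 0 of the 10 members, and for 1.39% of all genes. Cryab, Hsph1 and Hspa1b had an unadjusted limma p under 0.05, but the share of all genes under that value was not counted. Cryab came nearest, at 1.71 ± 0.52 (limma adjusted p = 0.0971), and it was called without LPS array 3 (2.02, adjusted p = 0.0187) or without array 5 (1.92, adjusted p = 0.0405). Without saline array 2 it was 1.37 (adjusted p = 0.212). Hspa1b stood at 1.59 ± 0.69 (0.297), Hspa1a at 1.17 ± 0.63 (0.467) and Hsph1 at 1.08 ± 0.39 (0.188). For Hspb1 the effects differed by 0.95 ± 0.74 (0.667).

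Hspb6 and Bag3 had the estimates closest to 0. The difference was -0.09 ± 0.50 for Hspb6, with a 95% interval from -1.11 to 0.94, and 0.04 ± 0.40 for Bag3, with an interval from -0.79 to 0.87. Such intervals do not show equal effects. Hspb8 differed by 0.48 ± 0.50. Outside the members, Hspa2 was lower after MCAO than after LPS by the same test, at -1.50 ± 0.29 (limma adjusted p = 0.00624), as was Sil1 at -1.03 ± 0.25 (0.0378).

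**Figure D5:**
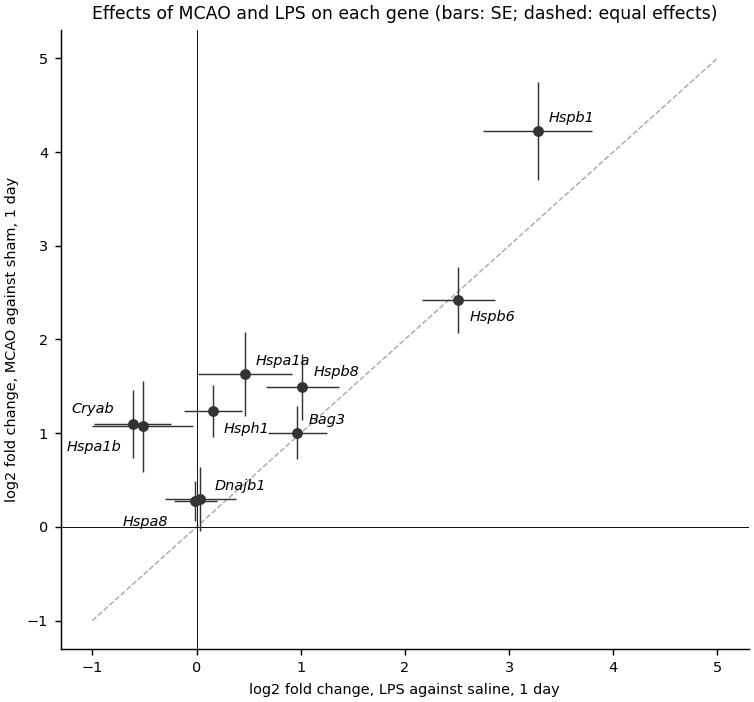
Log2 difference after MCAO against that after LPS at 1 day for the 10 genes, with SE bars and a dashed line of equal effects. Hspb6 (2.43 and 2.51) and Bag3 (1.01 and 0.97) lie near the line, and Cryab (1.10 and -0.61) lies farthest above it.

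The MCAO effect was smaller at 3 days than at 1 day in all 10 members by its point estimate, and 0 of these differences were called, where 0.00636% of all genes were. At 7 days it was smaller than at 1 day in 8 members, again with 0 called against 0.356% of all genes. Hspb1 came to -2.08 ± 0.82 between day 7 and day 1 (limma adjusted p = 0.395) and Hspb6 to -1.23 ± 0.56 (0.519). Between day 3 and day 1 Hsph1 stood at -0.94 ± 0.44 (0.808). The 95% interval of Hspb1 at 7 days ran from -3.77 to -0.39.

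How the members varied together was described by Pearson's r of the deviations from the group means over the 30 arrays, which share amplification, sort and array set. The highest values among the pairs of members were those of Hspa1a with Hsph1 at 0.75, Hspa1b with Hsph1 at 0.71 and Hspa1a with Hspa1b at 0.63, the last between probe sets that may not tell the copies apart. Cryab with Hspa8, Hspb1 with Hspb6 and Hspa8 with Hsph1 came next at 0.62 each, then Hspb1 with Hsph1 at 0.61. Dnajb1 with Hspa1a stood at 0.07, and the lowest value was that of Cryab with Bag3, at -0.48. With the mean of the immediate early genes r was 0.70 for Bag3, 0.60 for Hspb1 and 0.59 for Hspa1a, but 0.21 for Hspb6 and -0.03 for Cryab. With the mean of the pericyte and smooth muscle markers it was 0.67 for Hspb1, 0.55 for Cryab and 0.39 for Hspb6, but -0.06 for Hspb8. Other lists gave values as high. The highest of any member and list was 0.73, for Dnajb1 with the astrocyte markers. With the neuronal markers r was 0.56 for Hsph1 and 0.55 for Hspb1, but -0.33 for Hspb8.

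The gene most like each member was found by r over the 30 arrays, group differences included, and r within groups is given second. Hspb1 was most like Gap43, a growth cone protein gene (0.96 and 0.81), then Eif1a and Anxa2 (0.94 each). Hspb6 was most like Hspb1 itself (0.92 and 0.62), followed by the protease inhibitor gene Timp1 and the actin cross-linker gene Flna (0.92 each). Cryab was most like Lgals3, a galectin gene (0.89 and 0.79), and Bag3 most like Cebpb, a transcription factor gene of the inflammatory response (0.91 and 0.84). Hsph1 was most like Hnrnpab (0.92 and 0.81) and Hspa1b most like Hsp90aa1 (0.81 and 0.69). Dnajb1 was most like Abce1 (0.88 and 0.90), Hspa8 like the proteasome subunit gene Psmd6 (0.88 and 0.80) and Hspa1a like Farsa (0.86 and 0.70). Hspb8 had no close companion, with Epb41l4a first at 0.75 and 0.35.

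Probe sets of one gene mostly told the same for Hspb1. Its second probe set gave 4.37, 2.81 and 1.91 at 1, 3 and 7 days after MCAO and 3.31 after LPS. Hspa8 had 4 probe sets and 0 were called at 1 day, with differences from -0.31 to 0.47. The second of Dnajb1 differed by 0.22 at 1 day. Hspb6, Hspa1a and Bag3 have a single probe set each, so no second reading of them was possible.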

How the data were processed

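The authors deposited 1 intensity per probe set and array, summarised with RMA per the submitters' processing notes (version not given in the sources used here). The deposited intensities are whole numbers on a linear scale from 9 to 35553, and log2 values were computed from them. Of 45037 probe sets, 34945 carried 1 gene symbol, 932 several and 9160 none. Symbols were taken from the platform annotation, and 34741 matched RefSeq (GRCm38.p6). Per gene the probe set with the highest mean was used, and 2467 of 18193 genes fell under the filter.

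The groups of 30 arrays were compared with limma 3.58.1 in R 4.3.3, with 1 mean for each of 8 groups and variances moderated across genes (residual degrees of freedom 22, prior 4.55). Tests were two-sided, and p-values were adjusted over the 15726 genes. On simulated data of the MCAO comparison at 1 day, 63% of changes of log2 1 and 98% of log2 2 were recovered, with 10 false calls. The simulation used independent noise with 1 SD per gene and 100 changed genes of each size, where the real comparison called 1991. It does not give the power of the real comparison or of the smaller groups at 3 and 7 days. Precision is limited by the number of arrays, which have no depth.

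Members, lists and tests were chosen with earlier results of these data known. Beyond the 10 members, the text names up to 3 called genes per chaperone list and comparison, the 3 genes most like a member, and markers beside results. The array sets, the separate probe sets and the block limited to day 1 were chosen after seeing the data. Deviations of day 1 surgery arrays that share a description number correlated at 0.16 to 0.50 in 4 of 4 pairs. The own number was the best match in 2 of these pairs. No 2 arrays of a group held the same values (at most 8.37% of values identical). Alternatives were other normalisations, filters, probe set rules, variances and weights, the compared groups alone, replicate blocks, array sets and leaving out each array.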

Additional observations from a re-analysis of the deposited data

Results flagged for a closer look

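Of 40 groups of 4 or 5 arrays (10 genes in 4 groups), 5 held an array far from its fellows by Dixon's criterion, which chance alone reaches in about 1 in 20 groups. Sham array 3 of day 1 accounted for 3 of them: Hspb1 at 9.53 and Hsph1 at 12.29 were its highest values of the group, and Hspb8 at 7.95 was the lowest. The next sham arrays lay at 8.11, 11.57 and 9.60. Among the saline arrays, Cryab stood at 12.20 on array 2 with the next at 10.95, and Bag3 at 10.28 on array 1 with the next at 9.19. Without saline array 2 the LPS difference of Cryab went from -0.61 to -0.28, and without saline array 1 that of Bag3 from 0.97 to 1.26. Without sham array 3 the MCAO difference of Hspb1 went from 4.22 to 4.58, that of Hsph1 from 1.24 to 1.43 and that of Hspb8 from 1.49 to 1.06.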

How the results depend on the processing

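The counts of members called were 7 at 1 day, 1 at 3 days and 0 at 7 days after MCAO, 2 after LPS and 0 for each difference of effects. No member that was called reversed its sign under the alternatives run. Quantile normalisation, median centring, the filter at log2 6, the offset of 16, probe sets without shared probes, their mean, and trended robust variances left each count within 1.5 times. At 3 days the count was 0 without a filter, with the compared groups alone, with either replicate block (title or description numbers) and in the bright arrays, and 2 in the dim arrays. Array weights gave 4 at 3 days, 7 at 7 days, 4 after LPS, 2 for MCAO against LPS effects and 2 for day 7 against day 1. Of all genes they called 12.3%, 3.34%, 10.6%, 13.5% and 20% in these comparisons, in that order. The compared groups alone gave 2 at 7 days and 1 for day 7 against day 1, with 1.3% and 9.77% of all genes called. With the block of description numbers 5 were called at 1 day, and with the block limited to day 1 there were 4. The set as covariate gave 1 for MCAO against LPS effects (2.52% of all genes), and the dim arrays gave 1 after LPS (1.27%). Leaving out 1 array gave 4 to 7 at 1 day, 0 to 2 at 3 days, 0 to 0 at 7 days, 2 to 3 after LPS and 0 to 1 for MCAO against LPS effects. Some of these fits hold fewer arrays or genes, and the cause of the shifts was not tested.

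Over all genes the calls also moved. At 1 day they went from 1991 to 6161 with array weights and 5180 with the compared groups alone. At 3 days they went from 106 to 1937 and 0, at 7 days from 4 to 525 and 205, and after LPS from 489 to 1660 and 65. The blocks with description numbers called 1078 genes at 1 day and 23 at 3 days, and that with title numbers 10 at 3 days. The bright arrays called 4 and the dim arrays 866 at 3 days, the dim arrays 199 after LPS, and the set as covariate 836 after LPS. At 7 days the remaining settings gave 1 (either block) to 17 genes (the set as covariate, and trended robust variances). Leaving out 1 array gave 3 to 651 genes at 3 days, the highest without MCAO array 3 of that day, 2 to 7 at 7 days and 225 to 994 after LPS. Deviations of arrays that share a title number correlated at -0.24 to 0.15 at 1 day and at -0.40 to 0.42 after LPS. At 3 and 7 days, where title and description numbers are the same, r ran from 0.03 to 0.21 and from 0.00 to 0.37. The own number was the best match in 0 of 4 pairs at 1 day, 1 of 4 after LPS and 2 of 3 on each later day. The block with title numbers called 6 members at 1 day and 2 after LPS. Limits are the 3 to 5 arrays per group, a variance pooled over groups of unequal spread, and array sets that follow the day of surgery.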
